A study of Mus musculus with 2 samples.

Results

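The transcripts of the mitochondrial genome were measured in colonies grown from mouse mammary basal cells, with or without macrophages. The set holds all 37 genes whose name begins with mt- in the deposited read count table, of 49492 genes in all: 13 protein-coding genes, 2 rRNA genes and 22 tRNA genes, all on the mitochondrial chromosome (MT, GRCm38). Members were taken by name and position, and no measured value was used to choose them. Both groups started from wild-type (WT) primary basal cells, the outer contractile layer of the mammary duct that also holds stem cell activity. These were sorted by FACS from the mammary glands of adult female mice and grown in 3D culture for 11 to 14 days. In the study's own flow cytometry of such colonies, luminal (inner layer) cells outnumbered basal cells in both groups, and the basal part was larger with macrophages. The values below are therefore of mixed colonies, not of basal cells alone. The ctrl group received no treatment, and the M2 group shared its medium with bone-marrow-derived macrophages polarised towards an M2-like state, which sat in a transwell insert. Each group is 1 library, and neither the number of mice behind a library nor their pooling is given in the sources used here.

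The ctrl library held 26912610 reads in annotated genes and the M2 library 29413844. With 1 library per group there are no replicates, so no test was made and no p-value is given. Each value below compares these 2 libraries, not the conditions, and its 95% interval covers counting error only, and says nothing of the spread between separate cultures. Log2 ratios are M2 over ctrl, of reads plus 1 over the library's total. Basal markers were high in both libraries, with Krt5 at 56383 reads in ctrl and 83619 in M2 and Krt14 at 81991 and 68968. Of 7 macrophage markers, Adgre1, Tyrobp and Fcer1g had 0 reads in both libraries, and all 7 summed to 272 reads in ctrl and 260 in M2. The 6 luminal markers summed to 89589 and 82522 reads (log2 ratio -0.25), and the 6 fibroblast markers to 4596 and 2410 (-1.06, with Dcn at 51 and 157 and Pdgfra at 607 and 822 going the other way). The 6 adipocyte markers summed to 267 and 19, mostly Lep (198 and 6) and Fabp4 (62 and 10). Adipoq, Plin1, Cidec and Retn had at most 2 reads in either library. Of the luminal markers Kit, Prlr and Elf5 were at least 2-fold lower in M2 (-1.73, -1.65 and -1.17), and of the basal markers Oxtr was (-2.24). The other luminal markers lay near 0 or above it, with Krt8 at 0.15, Krt18 at -0.11 and Epcam at -0.003. The other basal markers lay between -0.38 (Krt14) and 0.44 (Krt5). The part of these other cell types in the results below was not tested, and in bulk RNA fewer cells of a type cannot be told apart from less RNA per cell.

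The mitochondrial genome is a small circle that each cell carries in many copies. It is transcribed from both strands into long polycistronic RNAs, and the tRNAs that lie between the other genes are cut out to release the mRNAs and rRNAs. Its mRNAs encode core subunits of respiratory complexes I, III and IV and of the ATP synthase. All other subunits, the mitochondrial ribosomal proteins and every factor that copies, transcribes, processes or translates this genome come from nuclear genes. Most of its genes lie on the plus strand of the reference, and mt-Nd6 and 8 tRNA genes lie on the minus strand and come from the opposite transcript.

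Several sequences decide how these counts can be read, because neighbouring genes share bases and because some genes have a copy in the nucleus. The sequences are from the GENCODE M21 transcripts of GRCm38, whose positions match the table for all 45 mitochondrial genes and pseudogenes compared. mt-Atp8 and mt-Atp6, which lie on one mRNA, share the 43 bases in capitals (MT:7927-7969), shown here with 10 bases on either side.
mt-Atp8 and mt-Atp6: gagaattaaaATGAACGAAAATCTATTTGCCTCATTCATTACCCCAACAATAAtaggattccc
mt-Nd4l and mt-Nd4, the other pair on one mRNA, share the 7 bases in capitals (MT:10167-10173).
mt-Nd4l and mt-Nd4: acctactacaATGCTAAaaattattct
The first 60 bases of mt-Co2 (MT:7013-7072, plus strand) and of Gm28661 (chr1:24615506-24615565, minus strand), an annotated pseudogene, are the same, with the start codon in capitals.
mt-Co2: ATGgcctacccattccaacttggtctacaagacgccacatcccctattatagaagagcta
Gm28661: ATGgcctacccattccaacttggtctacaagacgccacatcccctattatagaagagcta
mt-Nd3 and Gm28438, its copy, differ at 1 of 345 aligned bases, the substitution T3C, counted from 1 at the first base of mt-Nd3 and shown in capitals.
mt-Nd3: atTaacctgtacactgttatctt
Gm28438: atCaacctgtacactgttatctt
The 3 tRNA genes below are shown with their anticodon in capitals. mt-Tl1, a leucine tRNA (MT:2676-2750, plus strand), had the most reads of all tRNA genes, mt-Te, the glutamate tRNA (MT:14071-14139, minus strand), the most on the minus strand, and mt-Ta, the alanine tRNA (MT:5018-5086, minus strand), had a log2 ratio beyond 2-fold.
mt-Tl1: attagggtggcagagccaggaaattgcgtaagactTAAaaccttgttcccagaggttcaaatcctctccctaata
mt-Te: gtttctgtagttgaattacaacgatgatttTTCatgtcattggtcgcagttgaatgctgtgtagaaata
mt-Ta: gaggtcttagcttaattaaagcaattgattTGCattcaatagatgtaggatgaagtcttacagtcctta

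Mitochondrial transcripts took a smaller share of the M2 library than of the ctrl library. The 37 genes held 1298604 reads in ctrl, 4.83% of the library (95% Wilson interval 4.82 to 4.83), and 1209385 reads in M2, 4.11% (4.10 to 4.12). The log2 ratio was -0.231 (95% Clopper-Pearson interval of the ratio -0.234 to -0.227), and it lay between -0.24 and -0.17 over 5 ways of scaling the libraries. For comparison, the 1908 nuclear genes with at least 100 CPM, reads scaled to library size, in both libraries had a median log2 ratio of -0.01, with quartiles at -0.21 and 0.20. The summed mitochondrial value lay just below the lower of these quartiles, and just above it, at -0.19, with the chromosome 1 copies described below. The 5 RNAs chosen for staying in the nucleus (Malat1, Neat1, Xist, Meg3 and Kcnq1ot1) were all lower in M2 too, from 201255 to 111412 reads in sum (log2 ratio -0.98). Their part in the mitochondrial value was not tested.

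Of the 37 genes, 36 had at least 10 reads over both libraries. mt-Tk, the lysine tRNA, had 0 reads in both libraries. By counting error alone this would allow up to 0.111 CPM in ctrl and 0.102 CPM in M2. The gene lies inside a stretch copied to chromosome 1, described below, and reads placed there would be missed. These values therefore do not bound its level. Of the 36, 28 had a log2 ratio below 0, where 55.2% of all 19233 genes with at least 10 reads did. Only 3 of the 36 were at least 2-fold apart, where 17.5% of all genes were. These were mt-Ta, with 30 reads in ctrl and 15 in M2, mt-Td, the aspartate tRNA, with 8 and 3, and mt-Tf, the phenylalanine tRNA, with 3 and 9. All 3 rest on few reads, and the intervals of mt-Td and mt-Tf include 0. Like mt-Tk, mt-Td lies inside the copied stretch. At a limit of 1.5-fold, 11 of the 36 were lower and 2 higher, where 31.8% of all genes passed this limit in either direction. The interval lay wholly below 0 for 22 genes and wholly above 0 for 2, mt-Ti and mt-Atp6. It narrows with read number, and the share of all genes with such an interval is not given here. These counts therefore do not set the mitochondrial genes apart. mt-Atp6 rests on 254 and 421 reads and stood at -0.07 with its chromosome 1 copy, described below.

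The 13 protein-coding genes held 98.5% of mitochondrial reads in ctrl and 98.6% in M2, but these reads were spread very unevenly. Of them, 8 had 70049 to 331098 reads each in ctrl, and the other 5 had 102 to 1308. Per length, the 8 lay at 2949 to 19830 RPKM (reads scaled to gene length and library size) in ctrl and 2610 to 16356 in M2, and the 5 at 5.54 to 140 and 6.94 to 84.2. The 5 low genes (mt-Co2, mt-Atp8, mt-Atp6, mt-Co3 and mt-Nd3) are neighbours on the genome. In ctrl the order of the 8 per length was mt-Nd4l, mt-Co1, mt-Cytb, mt-Nd6, mt-Nd5, mt-Nd4, mt-Nd2 and mt-Nd1. In M2 the order was the same except that mt-Nd2, at 3292 RPKM, stood above mt-Nd4, at 3121 RPKM. mt-Nd4l lay at 19830 RPKM in ctrl and 16356 in M2, and mt-Nd4, on the same mRNA, at 3892 and 3121.

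Counts of 3 of the low genes have to be read together with a stretch of chromosome 1. There, 7 pseudogenes (chr1:24611535-24616197, minus strand, GRCm38) match MT positions 6390 to 11042 in order, each with at most 1 mismatch in 294 to 876 aligned bases. Such nuclear copies of mitochondrial DNA are known from many genomes. Gm28661, the copy of mt-Co2, aligned over 681 bases with 0 mismatches and had 139891 ctrl reads and 138781 M2 reads, while mt-Co2 itself had 102 and 141. Gm10925, the copy of mt-Atp6, aligned over 678 bases with 0 mismatches and had 210316 and 219244 reads, against 254 and 421 for mt-Atp6. Gm28437, the copy of mt-Co3, aligned over 783 bases with 0 mismatches and had 57439 and 56714 reads, against 154 and 160. In these pairs, 99.7% to 99.9% of the reads lay on the chromosome 1 gene in both libraries.

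The split ran the other way for the remaining copies. Gm10222 and Gm28439, which match mt-Nd4l over 294 bases and the first 876 bases of mt-Nd4 with 0 mismatches, held 0.239% and 0.272% of the pair's reads in ctrl. Gm28438, with its 1 mismatch to mt-Nd3, held 17.2% in ctrl. Gm29216, which matches the last 483 bases of mt-Co1 but for 1 mismatch near its edge, had 48146 ctrl reads and 51649 M2 reads, 12.7% and 13.9% of the pair. Identical bases cannot be told apart by sequence, and how reads with several matching places were counted is not given in the sources used here. Values for mt-Co1, mt-Co2, mt-Atp6, mt-Co3, mt-Nd3, mt-Nd4l and mt-Nd4 are therefore uncertain, and are also given with the reads of the copy added. mt-Atp8, which lies inside the same stretch, had 110 ctrl reads and 140 M2 reads, and the table held no copy of it among the genes compared. The tRNA genes mt-Ts1, mt-Td, mt-Tk, mt-Tg and mt-Tr lie inside it too, and no reads of a copy were added for them. Their values, and that of mt-Atp8, may therefore miss reads placed on chromosome 1.

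**Figure D1:**
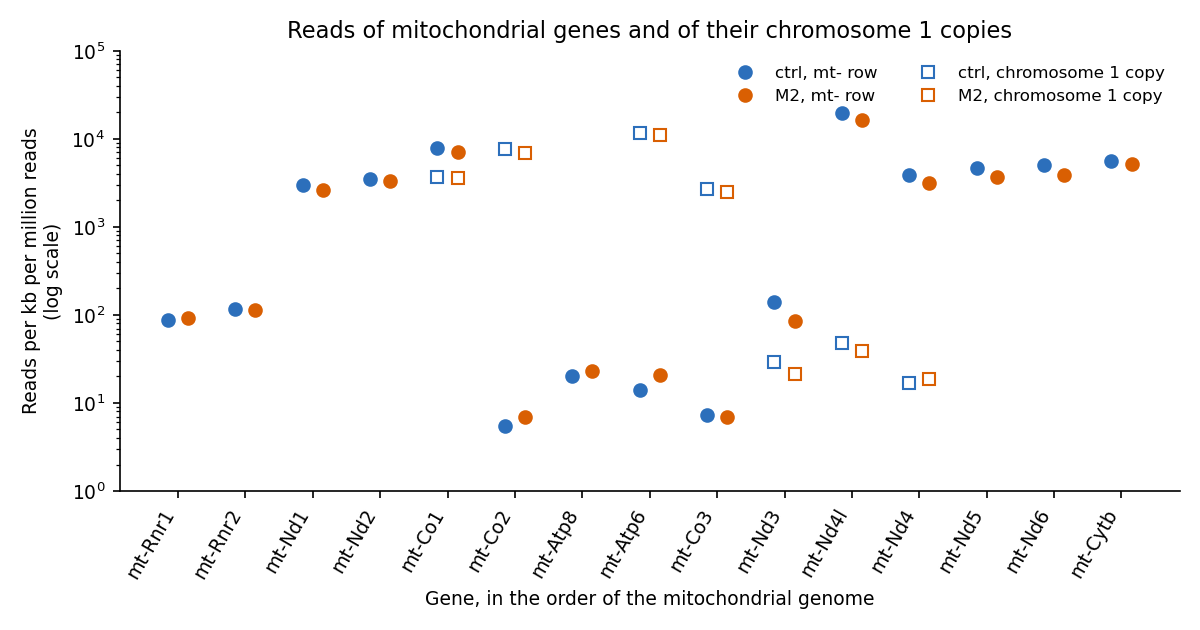
Reads scaled to gene length and library size (RPKM, log scale) of the 13 protein-coding and 2 rRNA genes, in genome order, for the ctrl (blue) and M2 (orange) library, each 1 library. Filled circles are the mt- genes and open squares their copies on chromosome 1; at mt-Co2, mt-Atp6 and mt-Co3 the squares lie far above the circles, and at mt-Nd4l and mt-Nd4 far below.

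All 7 genes for complex I subunits, the NADH dehydrogenase that feeds electrons into the chain, were lower in the M2 library. Their reads summed to 775571 in ctrl and 699312 in M2, for a log2 ratio of -0.28. mt-Nd2 was nearest to 0, with 97680 and 100524 reads (-0.09), followed by mt-Nd1 with 75962 and 73457 (-0.18). The 3 genes next to each other further along the genome had lower ratios. mt-Nd4l had 158502 and 142886 reads (-0.28), mt-Nd4 144343 and 126515 (-0.32), and mt-Nd5 227727 and 196427 (-0.34, interval -0.35 to -0.33). Their intervals did not overlap those of mt-Nd1 and mt-Nd2, but at this many reads such intervals are narrow and cover counting error only. mt-Cytb, of complex III and further along still, stood nearer to 0, at -0.13. Adding the copies left mt-Nd4l at -0.28 and mt-Nd4 at -0.32. mt-Nd3, the gene with the lowest ratio of the 13, had 1308 and 862 reads (-0.73, interval -0.86 to -0.60), and -0.68 with its copy.

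mt-Nd6, also of complex I and the only mRNA gene of the minus strand, had 70049 ctrl reads and 58641 M2 reads. Its log2 ratio of -0.38 (-0.40 to -0.37) was the lowest of the 8 genes with many reads. Per 100 reads of the plus-strand protein-coding genes there were 5.79 mt-Nd6 reads in ctrl and 5.17 in M2, for a log2 ratio of -0.16 (-0.18 to -0.15), or -0.20 with the copies added to the plus strand. Against mt-Nd5, which it meets end to end on the opposite strand, it stood at 30.8 and 29.9 reads per 100 (-0.04). Whether the counting used strand is not given in the sources used here. Reads of the plus-strand transcript may therefore be counted over the whole of mt-Nd6, and its value and these ratios may mix both strands. The ends of mt-Nd6 and mt-Nd5 also overlap, and reads there cannot be told apart.

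mt-Cytb, the 1 complex III subunit of this genome (cytochrome b), had 172334 ctrl reads and 172614 M2 reads, for a log2 ratio of -0.13. For complex IV, cytochrome c oxidase, mt-Co1 had the most reads of all mitochondrial genes, 331098 and 319620 (-0.18), and -0.16 with its copy. mt-Co2 stood at 0.33 on its own few reads (interval -0.04 to 0.72) and at -0.14 (-0.15 to -0.13) with Gm28661. mt-Co3 stood at -0.07 (-0.40 to 0.26) on its own and at -0.15 (-0.16 to -0.13) with Gm28437. The 3 complex IV genes summed to -0.18 without and -0.15 with the copies.

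Among the ATP synthase genes, as at mt-Co2, the direction turned with the copy. mt-Atp6, a subunit of the proton channel, stood at 0.60 (0.37 to 0.83) on its 254 and 421 reads, and at -0.07 (-0.08 to -0.06) with the reads of Gm10925. mt-Atp8, a small membrane subunit, stood at 0.22 (-0.15 to 0.59), and some of its reads may fall in the 43 bases shared with mt-Atp6. Over all 13 protein-coding genes the median log2 ratio was -0.18 with 10 genes below 0, and -0.16 with 12 below 0 once the copies were added. The median over all genes tested was -0.06, with 55.2% of them below 0. None of the 13 was 2-fold apart. With the copies, the mitochondrial total came to 1755440 reads (6.52%) in ctrl and 1676806 (5.70%) in M2, for a log2 ratio of -0.19. The 7 copies alone had 456836 and 467421 reads (-0.10).

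**Figure D2:**
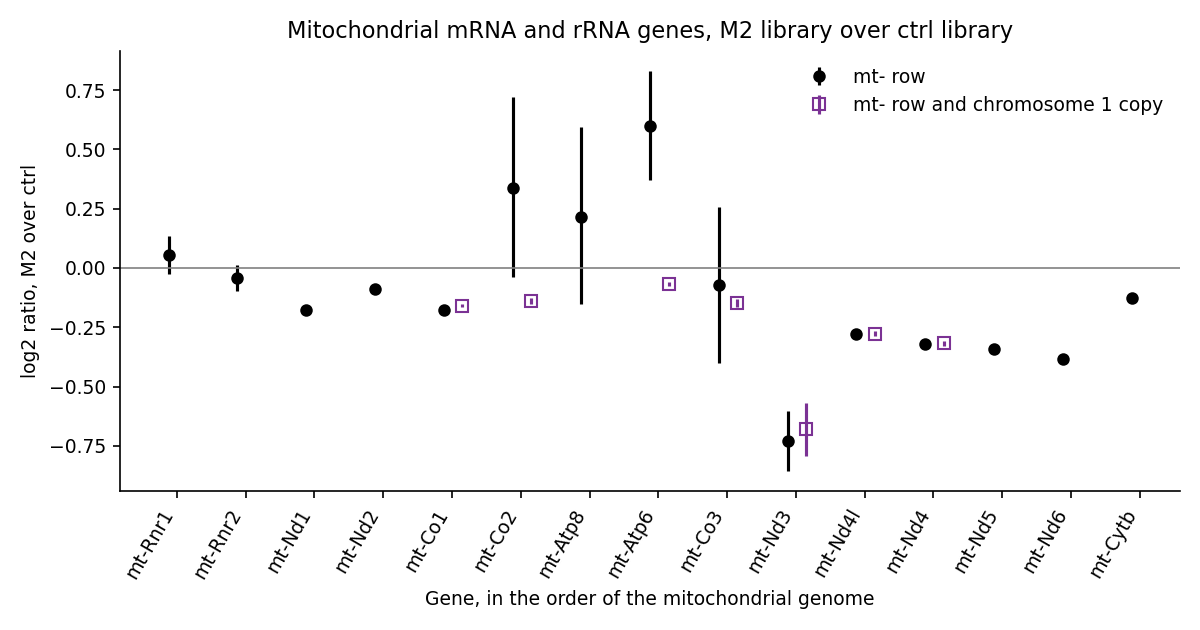
Log2 ratio of M2 over ctrl, scaled by total reads, for the 13 protein-coding and 2 rRNA genes in genome order, with 95% intervals that cover counting error only. Black circles use the mt- gene alone and purple squares add its chromosome 1 copy, which moves mt-Atp6 from 0.60 to -0.07 and mt-Co2 from 0.33 to -0.14.

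Within the mitochondrial reads, complex I took a smaller share in M2 than in ctrl, and complexes III and IV a larger one. The complex I share was 59.7% of mitochondrial reads in ctrl and 57.8% in M2, the complex III share 13.3% and 14.3%, and the complex IV share 25.5% and 26.5%. With the copies counted, complex I stood at 44.2% and 41.8%, complex III at 9.82% and 10.3%, complex IV at 32.9% and 33.8%, and the ATP synthase at 12.0015% and 13.1%. By gene, mt-Co1 held 25.5% and 26.4%, mt-Cytb 13.3% and 14.3%, and mt-Nd2 7.52% and 8.31%. mt-Nd5 held 17.5% and 16.2%, mt-Nd4 11.1% and 10.5%, and mt-Nd6 5.39% and 4.85%. Shares of one total are not independent of each other, and each of these differences is 2 percentage points or less on the mitochondrial genes alone.

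The 2 rRNA genes, which encode the RNA cores of the mitochondrial ribosome, had few reads and lay near 0 on the log2 scale. mt-Rnr1 (12S) had 2272 ctrl reads and 2579 M2 reads, for a log2 ratio of 0.05 (-0.03 to 0.14). mt-Rnr2 (16S) had 5016 and 5323, at -0.04 (-0.10 to 0.01), which turned to 0.02 under 3 of the other scalings. Per length they lay at 88.4 and 118 RPKM in ctrl, at 91.8 and 114 RPKM in M2. Their sum stood at -0.01 (-0.06 to 0.03) by total reads and at 0.05 under 3 other scalings, so no direction can be given. Per 100 reads of protein-coding mitochondrial genes there were 0.569 rRNA reads in ctrl and 0.663 in M2, for a log2 ratio of 0.22 (0.17 to 0.26), and 0.18 with the copies.

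The tRNA genes were lower in M2 by more than the mRNA genes. They held 11693 reads in ctrl and 9075 in M2, 0.900% and 0.750% of mitochondrial reads, with a log2 ratio of -0.49 (-0.53 to -0.45). Of 21 genes with at least 10 reads, 17 had a ratio below 0, where 55.2% of all genes tested did, and the median was -0.44. Among the 21, 10 were at least 1.5-fold lower and 1 at least 1.5-fold higher under each of the 5 scalings, where 16.7% and 15.1% of all genes tested were so under scaling by total reads. These genes are 59 to 75 bases long, and reads of a mature tRNA cannot be told apart in these counts from reads of a longer RNA that spans it. The sums here and by strand may also miss reads of mt-Ts1, mt-Td, mt-Tk, mt-Tg and mt-Tr, which lie inside the stretch copied to chromosome 1.

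By tRNA, mt-Tl1 had 4165 ctrl reads and 3355 M2 reads, for a log2 ratio of -0.44 (-0.51 to -0.37). Its gene follows mt-Rnr2 directly. mt-Te had 2306 and 1457 reads (-0.79, interval -0.89 to -0.70). mt-Tm, the methionine tRNA between mt-Tq and mt-Nd2, had 851 and 781 reads (-0.25, interval -0.39 to -0.11). mt-Ta stood at -1.08, but its interval ran from -2.13 to -0.19. Named after their values were seen, mt-Th (histidine) had 784 and 472 reads (-0.86), and mt-Ty (tyrosine) 170 and 93 (-0.99). Likewise named, but above 0, mt-Ti (isoleucine) had 320 and 414 reads (0.24, interval 0.03 to 0.46).

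Summed over each strand, the tRNA genes of the minus strand stood lower than those of the plus strand. Since the strand setting of the counting is not given, reads of either transcript may fall in these genes. The 8 minus-strand tRNA genes had 3704 ctrl reads and 2471 M2 reads, for a log2 ratio of -0.71 (-0.79 to -0.64), and the 14 plus-strand tRNA genes 7989 and 6604, at -0.40 (-0.45 to -0.36). Of the minus-strand tRNA genes 7 of 8 were below 0, all but mt-Tp (proline, 46 and 66 reads), and of the plus-strand ones 10 of the 13 tested. Of all genes tested, 55.2% were below 0. mt-Te alone gave 2306 of the 3704 minus-strand reads in ctrl. Per 100 plus-strand tRNA reads there were 46.4 minus-strand reads in ctrl and 37.4 in M2. Over all classes, the 9 minus-strand genes stood at -0.40 and the 28 plus-strand genes at -0.22, or at -0.19 with the copies.

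**Figure D3:**
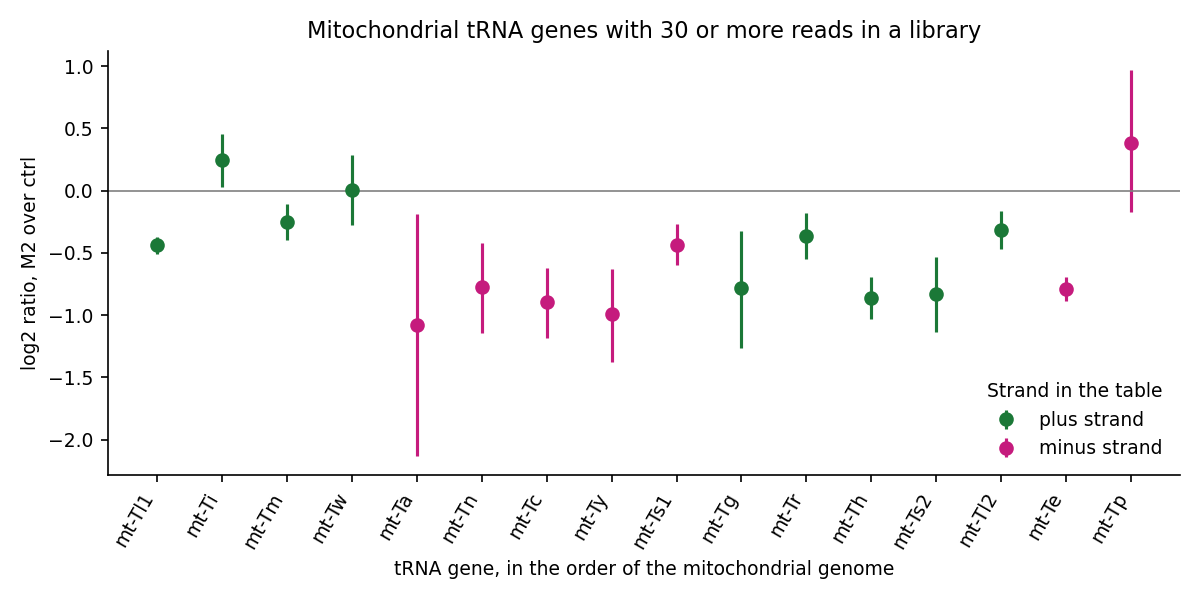
Log2 ratio of M2 over ctrl, scaled by total reads, for the 16 mitochondrial tRNA genes with 30 or more reads in a library, in genome order, with 95% intervals that cover counting error only. Green marks the plus strand and pink the minus strand; most genes of both strands lie below 0, and mt-Ti and mt-Tp lie above it.

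The nuclear genes for the same respiratory complexes lay mostly above 0. Of 77 nuclear subunit genes tested, 23 had a log2 ratio below 0, where 55.2% of all genes tested did. The median of the 77 was 0.13, against -0.06 for all genes tested. None was at least 2-fold lower and 2 were at least 2-fold higher, where 8.47% and 9.05% of all genes tested were. For complex I the 36 nuclear subunits had a median of 0.15 and their summed reads a log2 ratio of 0.08, against -0.28 for the sum of the 7 mitochondrial ones. Ndufb8, an accessory subunit, had 2546 ctrl reads and 3351 M2 reads (0.27), and Ndufc1, another, 2990 and 3744 (0.20). For complex III the 9 nuclear subunits had a median of 0.08, with Uqcrb at 0.13, Uqcrh at 0.26 and Uqcrc1 at -0.15, and their sum stood at 0.06, against -0.13 for mt-Cytb.

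For complex IV the 14 nuclear genes tested had a median of 0.28 and all 16 a summed ratio of 0.22, against a summed -0.15 for the mitochondrial subunits with their copies. Cox5b had 3047 ctrl reads and 4389 M2 reads (0.40), Cox8a 4217 and 4876 (0.08), and Cox6c 4015 and 4573 (0.06). The 2 genes beyond 2-fold were both forms known to respond to low oxygen, but any part of oxygen in their values was not tested. Ndufa4l2 had 5 ctrl reads and 1007 M2 reads (7.26, interval 6.30 to 9.15), and Cox4i2, an alternative form of subunit 4, 49 and 181 (1.74, interval 1.29 to 2.24). For the ATP synthase the 18 nuclear subunits had a median of 0.09 but a summed ratio of 0.00047, against a summed -0.07 for the mitochondrial subunits with copies. Atp5b, the catalytic subunit, had 18686 and 20561 reads (0.01), Atp5a1 15278 and 15054 (-0.15), and Atp5h 5384 and 5714 (-0.04).

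**Figure D4:**
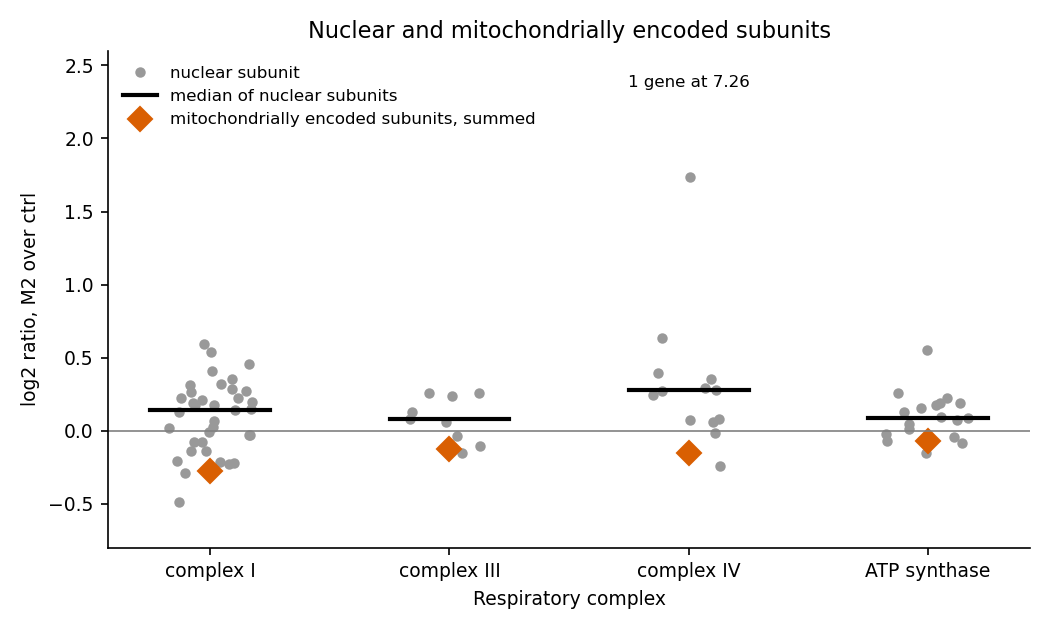
Log2 ratio of M2 over ctrl, scaled by total reads, of each nuclear subunit gene (grey), their median (black bar) and the summed mitochondrial subunits with chromosome 1 copies (orange), by respiratory complex. The orange points lie at -0.28, -0.13, -0.15 and -0.07 and the medians at 0.15, 0.08, 0.28 and 0.09; Ndufa4l2 lies off the axis at 7.26.

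Nuclear genes that copy, express and maintain the mitochondrial genome were described in 8 lists with 217 genes tested. Of these, 115 had a log2 ratio below 0, where 55.2% of all genes tested did, which is close to the same share. In all, 2 were at least 2-fold lower and 2 at least 2-fold higher, where 8.47% and 9.05% of all genes were. The 22 genes of transcription and mitochondrial DNA maintenance had a median of -0.24 with 17 below 0 and none beyond 2-fold. Twnk, the DNA helicase, had 1706 ctrl reads and 1427 M2 reads (-0.39), Polg, the DNA polymerase, 1150 and 1089 (-0.21), and Ssbp1, which coats single-stranded DNA, 2410 and 2534 (-0.06). Outside the naming rule and chosen after their values were seen, Polrmt, the RNA polymerase, had 598 and 564 reads (-0.21), and Tfam, which packs the DNA and opens its promoters, 720 and 807 (0.04, interval -0.11 to 0.18).

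The lists for RNA and protein synthesis had medians on both sides of that of all genes, -0.06. RNA processing, stability and decay (31 genes) had a median of -0.05 that turned to 0.01 under other scalings. Within it, Slirp, which with Lrpprc stabilises mitochondrial mRNAs, had 4270 and 5591 reads (0.26), Grsf1, a protein of the RNA granules, 3420 and 3474 (-0.11), and Rexo2, an exonuclease for short RNAs, 1496 and 2111 (0.37). Translation factors (19 genes) had a median of -0.22, with Tufm at 0.15, Gfm1 at -0.23 and Mtif2 at -0.06. The 19 aminoacyl-tRNA synthetases, which charge the tRNAs, had a median of -0.18. Lars2, for leucine, had 5086 and 3644 reads (-0.61), while Kars (0.08) and Gars (0.06) also serve the cytosol. The 83 mitochondrial ribosomal proteins had a median of 0.04 with 31 below 0, where 55.2% of all genes tested were. Of these, Mrpl51 lay at 0.55, Mrps5 at -0.04 and Mrpl24 at -0.15.

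The 4 genes beyond 2-fold lay in the lists of biogenesis and of mitophagy, the removal of mitochondria, with 1 of 13 and 1 of 15 genes in each direction. As 17.5% of all genes tested were beyond 2-fold, these counts do not set the lists apart. Among 13 biogenesis regulators (median 0.05), Esrrg, an orphan nuclear receptor, had 64 ctrl reads and 326 M2 reads (2.20, interval 1.83 to 2.63), and Ppargc1b, a coactivator, 362 and 169 (-1.22, interval -1.50 to -0.96). The 3 members with the most reads, Gabpa, Creb1 and Yy1, lay at 0.11, 0.06 and 0.03. Among 15 mitophagy genes (median -0.03, which turned to 0.03 under other scalings), Bnip3, an outer membrane receptor induced by low oxygen, had 463 and 2279 reads (2.17, interval 2.03 to 2.32), and Park2, a ubiquitin ligase, 55 and 27 (-1.13, interval -1.88 to -0.46). Tax1bp1, Sqstm1 and Nbr1, autophagy adaptors that also serve other cargo, lay at 0.33, 0.19 and -0.44. The 15 genes of the mitochondrial unfolded protein response had a median of 0.02, with the chaperones Hspa9, Hspd1 and Hspe1 at 0.11, 0.28 and 0.28.

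**Figure D5:**
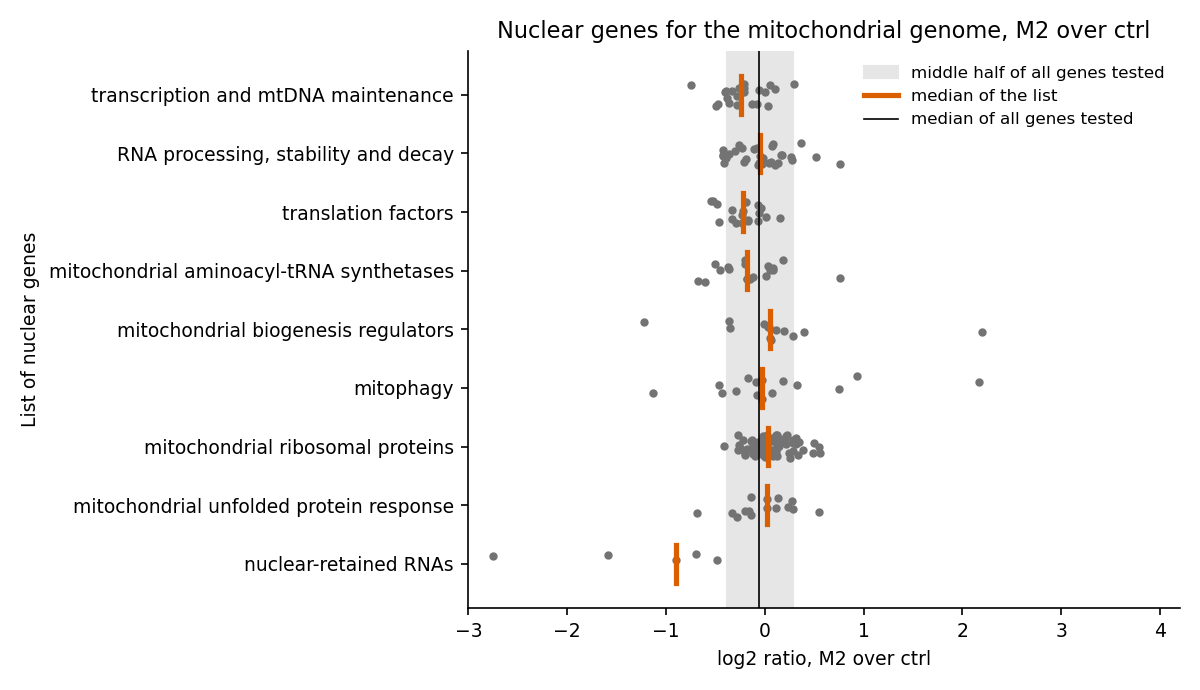
Log2 ratio of M2 over ctrl, scaled by total reads, of each gene (grey points) in 8 lists of nuclear genes for mitochondria and in the nuclear-retained RNAs, with the median of each list (orange bar). The grey band spans the quartiles of all 19233 genes tested (-0.38 to 0.29) around their median of -0.06; the 8 medians lie inside the band, and that of the 5 nuclear-retained RNAs at -0.90 lies outside it.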

How the data were processed

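RNA was from cultured basal cell colonies, 1 library per group. Per the labels, extraction used an RNeasy column kit and libraries a SMARTER mRNA kit, while the study's methods name another extraction reagent. The authors deposited one table of raw counts per gene on GRCm38 (mm10), per the submitters' processing notes, with positions that match GENCODE M21 for the genes used. Aligner, counter, strand setting, treatment of reads with several matches, and whether reads or fragments were counted are not given in the sources used here. The series text speaks of a microarray, but the values are whole read counts. No molecular identifiers are stated, so amplified copies of one molecule may be counted as separate reads. The intervals take reads as independent and may therefore be too narrow even for counting error.

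Both columns were mapped by name to the samples titled ctrl and M2. Each gene's log2 ratio was taken of (reads + 1) over total reads, for genes with at least 10 reads over both libraries. Intervals are 95% Clopper-Pearson for ratios (share of reads in M2, given the sum) and Wilson for percentages (scipy 1.17.1). Beyond 2-fold is used as a description of size. The other settings tried were TMM and upper-quartile scaling (edgeR 4.0.16), median-of-ratios size factors (DESeq2 1.42.0), the total without mitochondrial reads, pseudocounts of 0.5 and 5, a minimum of 1 CPM and a 1.5-fold limit. Adding the chromosome 1 copies to summed reads was among these settings, and adding them gene by gene, to shares and to ratios was chosen after seeing the data. Copies were aligned with Biopython 1.88. edgeR and DESeq2 were used for scaling only, since with 1 library per group their tests have no spread to estimate. The ratio and interval code was tested on simulated data. The mitochondrial genes, the gene lists and these settings were chosen with earlier results of these data known. Named genes are all mitochondrial mRNA and rRNA genes, the 3 tRNA genes with the most reads and any at least 2-fold apart with 10 or more reads in a library, and in each nuclear list the 3 members with the most reads and up to 4 at least 2-fold apart with 50 or more reads in a library. One gene that this rule names is not reported here.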

Additional observations from a re-analysis of the deposited data

How the results depend on the processing

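No paired analysis was possible because only 1 library stands on either side, and for the same reason no library could be left out. The log2 ratio of all mitochondrial reads was -0.17 under TMM, under median-of-ratios and under upper-quartile scaling, -0.24 with the total without mitochondrial reads, and -0.19 with the chromosome 1 copies. For protein-coding reads the same settings gave -0.17, -0.17, -0.17, -0.24 and -0.19. For rRNA reads TMM, median-of-ratios and upper-quartile scaling gave 0.047, 0.051 and 0.051, and for tRNA reads -0.43 each. The median over protein-coding genes was -0.12 under TMM, -0.11 under median-of-ratios and upper-quartile scaling, and -0.16 with the copies. Mitochondrial genes beyond 2-fold, 2 lower and 1 higher, were 0 and 0 with a pseudocount of 5 or a minimum of 1 CPM, and a 1.5-fold limit gave 11 lower and 2 higher. The complex I share of mitochondrial reads had a log2 ratio of -0.047, which was -0.028 without mt-Co1, -0.053 without the overlapping gene pairs and -0.083 with the copies. mt-Nd6 against plus-strand protein-coding genes was -0.20 with the copies. In the nuclear lists, with 2 genes beyond 2-fold lower and 4 higher, a minimum of 1 CPM left 1 lower, and a 1.5-fold limit gave 6 lower and 10 higher. Of all genes tested, 16.7% were at least 1.5-fold lower and 15.1% at least 1.5-fold higher. Of 135 other gene values 130 kept their sign, as did 53 of 53 shares, 89 of 96 list medians and 24 of 25 sums. A change of the minimum reads cannot move a gene's own ratio, and a pseudocount hardly moves one with many reads. The count of 130 therefore includes values whose sign could not change. The rRNA sum, at -0.01 by total reads and above 0 under 3 scalings, is not among the 25. Scaling moved the median of all genes by at most 0.06. Low counts limit mt-Co2, mt-Atp8, mt-Atp6, mt-Co3 and the tRNA genes with few reads most. For mt-Co2, mt-Atp6 and mt-Co3 this is not depth alone, as 99.7% to 99.9% of the pair's reads lay on the chromosome 1 copy.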
